A study of Mus musculus with 7 samples.

Results

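The Bcl2 family outside the direct p53 targets comprised 10 genes: the anti-apoptotic *Bcl2*, *Bcl2l1* and *Mcl1*, the pore-forming *Bak1* and *Bok*, and the BH3-only genes *Bid*, *Bad*, *Bcl2l11*, *Bmf* and *Bik*. They were chosen by name and not by their values, though with earlier results of these data known. All 10 were among the 14851 genes of the deposited table. *Bax*, *Bbc3* and *Pmaip1*, which p53 activates directly, were left out and are given only for comparison. RNA was sequenced from the livers of 4 mice with floxed p53 (FL, *Albumin-Cre*; p53 FL/FL) and 3 with intact p53 (WT, *Albumin-Cre*; p53 WT/WT), and the comparison asked whether loss of p53 in the liver altered these transcripts early after a toxic injury. Both genotypes carried the Cre transgene, whose Albumin promoter is active in hepatocytes, so that the deletion of the floxed *Trp53* alleles was directed to the liver's own epithelial cells. Which cells held the *Trp53* transcripts that remained in FL livers was not tested. All mice were C57BL/6J males of about 70 days, and each received 1 injection of CCl4 into the peritoneum (20% in corn oil, at 1 mL/kg) and was sampled after 8 h. CCl4 is a solvent that hepatocytes convert into toxic radicals. The study describes a red fluorescent reporter allele in some mice of either genotype without saying which, and no untreated liver was analysed here. The WT source names share a prefix that no FL source name carries, and what it stands for is not given.

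Proteins of the Bcl2 family decide whether the outer mitochondrial membrane is opened and cytochrome c released. Guardians such as MCL1 and BCL-XL, the product of *Bcl2l1*, hold the effectors in check, and BH3-only proteins, when induced or modified, neutralise the guardians or activate the effectors. Hepatocytes are known to depend on MCL1 and BCL-XL for their survival, and several BH3-only proteins are controlled after translation, which transcript levels do not show.

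A difference between FL and WT livers was not detected for any of the 10 members. The members past an adjusted p of 0.05 were 0 of 10, where 0.0159% of the 12545 tested genes passed, and an unadjusted p under 0.05 was reached by 0 of 10, against 3.20% of all tested genes (limma on log2 values of the normalised count + 1, Benjamini-Hochberg adjustment). The FL and WT ranges overlapped for all 10 members, where 4.76% of tested genes had ranges that did not overlap (2.77% with FL above WT and 1.98% with FL below WT). The log2 fold change, FL minus WT, was above 0 for 5 members and below 0 for 5, with a median of 0.033 against 0.0069 over all tested genes. The larger differences lay within each genotype: in WT replicate 2 and FL replicate 3, *Mcl1* and *Bcl2l1* were the lowest of their groups, while *Bmf*, *Bcl2*, *Bok*, *Bad* and *Bak1* were the highest. This was not particular to the members, as 57.4% of all tested genes were highest in both of these livers or lowest in both. In bulk liver, fewer cells of a type and less RNA per cell cannot be told apart.

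Those 2 livers also stood apart over all genes. The first principal component held 66.7% of the variance, with a score of 82.0 for WT replicate 2, 29.2 for FL replicate 3 and between -25.6 and -19.1 for the other livers. The fold changes of the members and the counts of the gene lists are therefore also given without them. The deposited values were normalised counts rounded to whole numbers, which summed to 15851380 to 16554427 per FL liver and 14123213 to 15538815 per WT liver. From the spacing of the low values, 11.9 to 19.5 M reads per FL liver and 15.4 to 17.1 M per WT liver were estimated to lie on genes. *Trp53* served as the check of the labels, and its FL values of 131, 130, 217 and 110 normalised counts (replicates 1 to 4) lay far under the WT values of 876, 688 and 831 (replicates 1 to 3). The log2 fold change was -2.47 (SE 0.23, limma adjusted p = 0.0447), and -2.78 without both livers.

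The promoters of *Mcl1*, *Bcl2l1* and *Bmf* are shown because these genes made up the clearest contrast between livers, with the first pair low where *Bmf* was high. Each line holds the 250 bases before the most upstream RefSeq start of transcription, written from 5′ to 3′ along the gene's own strand (GRCm38.p6). *Mcl1* had 1 such start, and *Bcl2l1* and *Bmf* had 3 each. Capitals mark a GC box (GGGCGG on either strand) or a CCAAT box (CCAAT on either strand), and none of the marked motifs overlap. The regions are chr3:95658471-95658720 on the plus strand for *Mcl1*, chr2:152831729-152831978 on the minus strand for *Bcl2l1* and chr2:118549687-118549936 on the minus strand for *Bmf*, whose last base before the start lies in an exon of another *Bmf* transcript in the GENCODE annotation.
Mcl1: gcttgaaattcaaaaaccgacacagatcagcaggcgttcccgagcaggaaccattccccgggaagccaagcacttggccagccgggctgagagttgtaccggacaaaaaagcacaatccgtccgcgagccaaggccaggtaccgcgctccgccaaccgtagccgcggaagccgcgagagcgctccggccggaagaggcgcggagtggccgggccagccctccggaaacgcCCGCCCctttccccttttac
Bcl2l1: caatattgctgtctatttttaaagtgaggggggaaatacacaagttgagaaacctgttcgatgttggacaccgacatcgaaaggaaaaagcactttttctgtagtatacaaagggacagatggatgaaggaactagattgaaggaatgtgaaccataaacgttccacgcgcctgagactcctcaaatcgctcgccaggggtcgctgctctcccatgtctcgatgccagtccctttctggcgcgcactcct
Bmf: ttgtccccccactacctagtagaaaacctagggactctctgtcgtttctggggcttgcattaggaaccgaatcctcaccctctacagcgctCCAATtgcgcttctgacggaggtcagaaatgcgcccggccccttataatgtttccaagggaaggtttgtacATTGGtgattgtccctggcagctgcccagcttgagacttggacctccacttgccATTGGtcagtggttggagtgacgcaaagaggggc

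In the window of *Mcl1* the GC box began 20 bases before the start, and in that of *Bmf* the CCAAT boxes began 159, 88 and 34 bases before it. Neither motif, nor any other searched, was found in the printed stretch of *Bcl2l1*. Over the 15 RefSeq start windows of 9 members (250 bases before and 50 after a start), the GC box occurred in 8 of 15, from 7 members (*Bcl2*, *Mcl1*, *Bok*, *Bid*, *Bad*, *Bcl2l11* and *Bmf*), and in 35.7% of all 32851 windows. The CCAAT box occurred in 5 of 15, from 3 members (*Bad*, *Bcl2l11* and *Bmf*), and in 37.4% of all windows. The p53 half-site, by its usual consensus, was found in 1 of the 15 member windows, in *Bmf*, and in 8.36% of all windows. Neither it nor the GC box of *Bmf* was in the stretch printed for that gene. A FOXO site (TGTTTAC) was found for *Bcl2l11* and in 3.65% of all windows. No member window held a STAT site (TTCNNNGAA, 8.30% of all windows) or a full CRE (TGACGTCA, 1.79%). These are matches of letters on either strand and not bound sites. The windows of *Bik* were not analysed here.

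The members differed widely in level. Per kilobase of exon, over the 7 livers, *Mcl1* had a mean of 1212 normalised counts and *Bcl2l1* of 342. *Bak1* followed with 142, *Bid* with 116, *Bad* with 98.4 and *Bok* with 71.5 normalised counts per kilobase. The lowest were *Bik* with 49.2, *Bcl2l11* with 35.4, *Bmf* with 15.9 and *Bcl2* with 1.79. The order at its ends was clear in every liver: the lowest *Mcl1* level, 628 per kilobase, was above the highest *Bcl2l1* level of 453, and the highest *Bcl2* level of 4.37 was below the lowest *Bmf* level of 6.85. Between these ends every gene overlapped its neighbour in the order. With the length of the longest transcript in place of all exons, *Bak1*, *Bid* and *Bad* changed places.

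**Figure D1:**
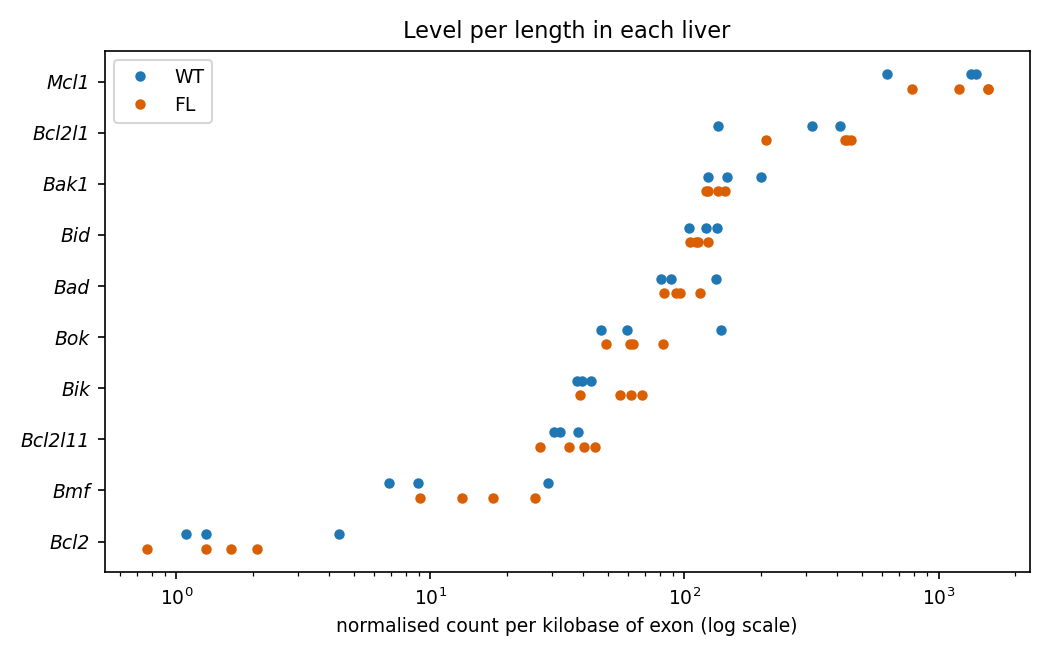
Level of each member in each liver, in normalised counts per kilobase of exon on a log axis, with WT livers in blue and FL livers in orange. Mcl1, between 628 and 1562, lies to the right of all other members, and Bcl2, between 0.764 and 4.37, to the left of them.

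*Mcl1* encodes a short-lived guardian that binds BAK and BIM. The gene lies on chromosome 3 at 95658788 to 95663176, plus strand (GRCm38, GENCODE vM21). It was measured at 4788, 2146 and 4591 normalised counts in WT replicates 1 to 3 and at 5338, 5333, 2684 and 4129 in FL replicates 1 to 4. The low values belonged to WT replicate 2 and FL replicate 3, and the groups overlapped. The means were 4371 ± 1260 (SD, n = 4) in FL and 3842 ± 1472 (SD, n = 3) in WT livers. This gave a log2 fold change of 0.22 (95% interval -0.57 to 1.02, limma adjusted p = 0.999), an interval that covered 0.672 to 2.02 times the WT level. Without WT replicate 2 and FL replicate 3 it was 0.063 (-0.20 to 0.33), and without WT replicate 2 alone it was -0.15.

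*Bcl2l1*, on chromosome 2 at 152780668 to 152831728, minus strand, encodes BCL-XL, the other main guardian of hepatocytes. WT replicates 1 to 3 held 1880, 624 and 1452 normalised counts, and FL replicates 1 to 4 held 2010, 2077, 958 and 1962. The same livers as for *Mcl1* were low, and the other FL livers were above the highest WT liver. FL livers averaged 1752 ± 531 (SD, n = 4) and WT livers 1319 ± 639 (SD, n = 3), and the log2 fold change was 0.49 (95% interval -0.47 to 1.45, limma adjusted p = 0.999). Without FL replicate 3 the groups no longer overlapped, as for 11.4% of genes tested in that way. Without both livers the log2 fold change was 0.29 (0.037 to 0.54), with an unadjusted p of 0.0290 and an adjusted p of 0.456 by limma, so that it did not pass the threshold. Without WT replicate 2 alone the log2 fold change was 0.019.

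*Bcl2*, which gives the family its name, was low in all of these livers. The gene spans chromosome 1, 106538178 to 106714274, minus strand. It was read at 12, 40 and 10 normalised counts in WT replicates 1 to 3 and at 7, 15, 19 and 12 in FL replicates 1 to 4, where a count of 3 reads corresponds to between 2.43 and 4.15 normalised counts, depending on the library. WT replicate 2 was above all other livers and FL replicate 3 was the highest of its group, the reverse of *Mcl1* and *Bcl2l1*. With all livers the log2 fold change was -0.42 (95% interval -1.68 to 0.85, limma adjusted p = 0.999) and -0.013 without both livers.

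**Figure D2:**
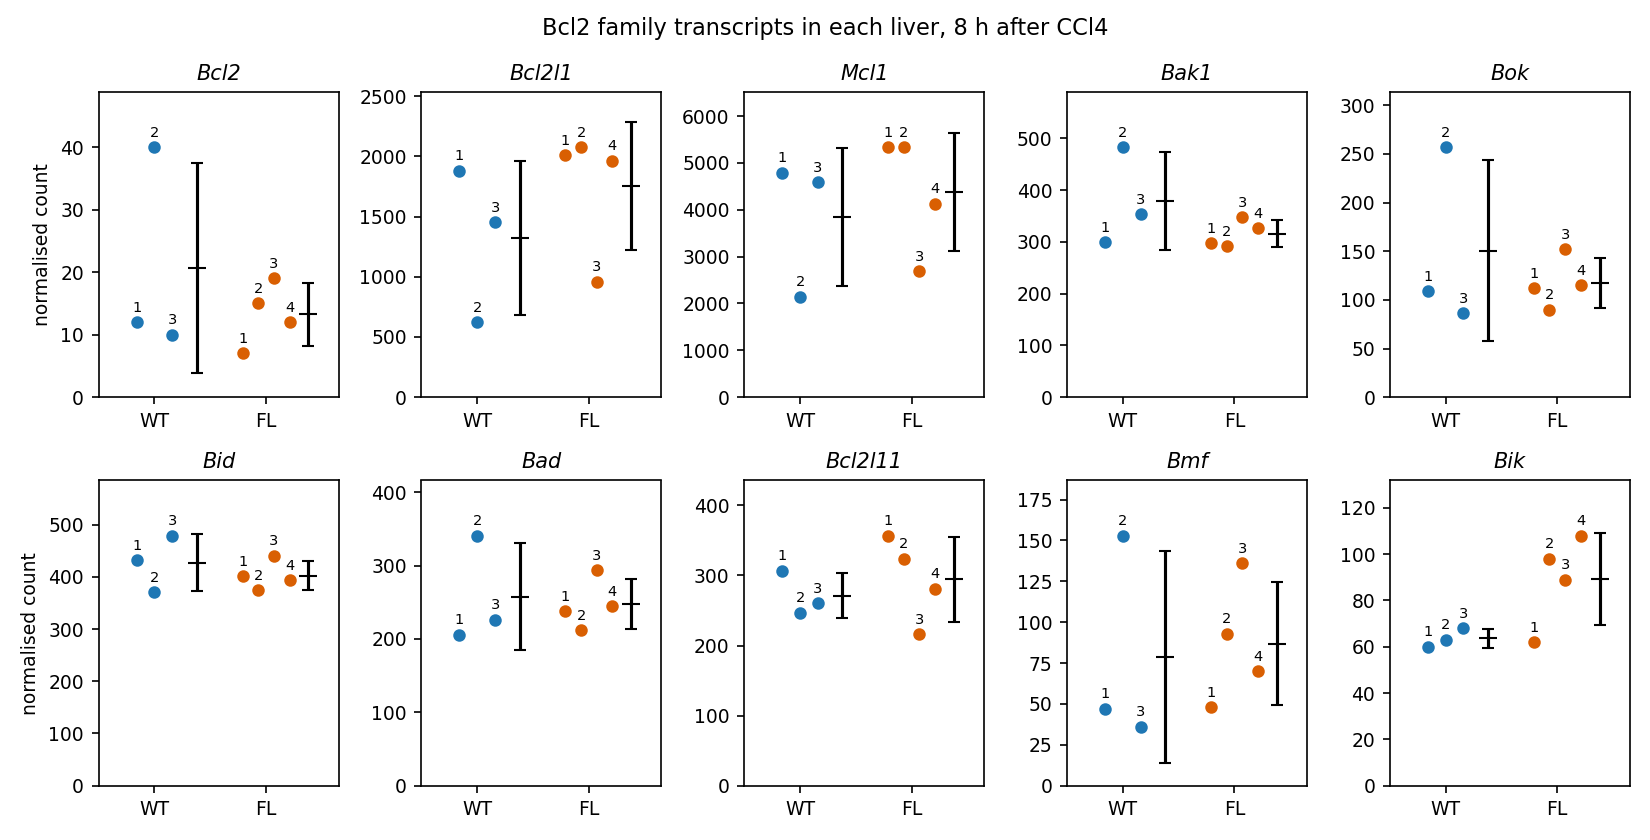
Normalised counts of the 10 members in each liver, with WT livers in blue, FL livers in orange, the replicate number above each point, and black bars for the mean ± SD (n = 3 WT and n = 4 FL). The groups overlap in every panel, and WT replicate 2 and FL replicate 3 are the low points for Mcl1 and Bcl2l1 and the high points for Bmf, Bcl2, Bok, Bad and Bak1.

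*Bak1* and *Bok* encode effectors, which form pores in the outer mitochondrial membrane. *Bak1* lies on chromosome 17 at 27019810 to 27029009, minus strand, and *Bok* on chromosome 1 at 93685660 to 93695764, plus strand. For *Bak1*, WT replicates 1 to 3 held 299, 483 and 353 normalised counts and FL replicates 1 to 4 held 297, 292, 348 and 326. The FL values lay close together, at 316 ± 26.2 (SD, n = 4), and all of them were within the range of WT replicates 1 and 3 or just below it. The WT mean of 378 ± 94.6 (SD, n = 3) was raised by replicate 2, and the log2 fold change was -0.23 (95% interval -0.63 to 0.16, limma adjusted p = 0.999) with all livers and -0.093 without the 2 livers. Without WT replicate 1 the groups no longer overlapped, as for 9.07% of genes tested in that way.

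*Bok* was at 109, 257 and 86 normalised counts in WT replicates 1 to 3 and at 112, 90, 152 and 115 in FL replicates 1 to 4. WT replicate 2 alone was above every FL liver. Its log2 fold change was -0.22 (95% interval -1.07 to 0.63, limma adjusted p = 0.999), it was 0.12 (-0.29 to 0.52) without WT replicate 2 and FL replicate 3, and its sign therefore rested on these livers. The interval with all livers covered 0.478 to 1.55 times the WT level.

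Among the BH3-only genes, *Bid* and *Bad* act on signals that reach their proteins from outside the mitochondrion. BID is cut by caspase-8 below the death receptors, and BAD is held by 14-3-3 proteins while growth factor signalling keeps it phosphorylated. *Bid* (chromosome 6, 120891930 to 120916853, minus strand) had 432, 370 and 479 normalised counts in WT replicates 1 to 3 and 401, 374, 440 and 393 in FL replicates 1 to 4. WT replicate 2 and FL replicate 3 did not deviate in the same direction. The fold change in log2 was -0.081, with the narrowest interval among the members (-0.37 to 0.21, limma adjusted p = 0.999), which covered 0.774 to 1.15 times the WT level. Without both livers the log2 fold change was -0.22 (-0.45 to 0.0051, unadjusted p = 0.0543 and adjusted p = 0.519, limma). That interval covered 0.730 to 1.00 times the WT level.

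*Bad* (chromosome 19, 6941861 to 6951899, plus strand) had 206, 341 and 226 normalised counts in WT replicates 1 to 3 and 238, 212, 294 and 245 in FL replicates 1 to 4. WT replicate 2 was the highest of all and FL replicate 3 the highest FL liver. The FL to WT difference in log2 was -0.034 (95% interval -0.50 to 0.43, limma adjusted p = 0.999), and 0.099 without both livers.

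*Bcl2l11* encodes BIM, an activator that binds every guardian, and *Bmf* a related protein kept on the cytoskeleton by a dynein light chain. *Bcl2l11* (chromosome 2, 128126038 to 128162547, plus strand) was at 307, 247 and 260 normalised counts in WT replicates 1 to 3 and at 357, 324, 216 and 281 in FL replicates 1 to 4. FL replicate 3 was the lowest liver, and the WT values lay inside the FL range. Its log2 fold change was 0.10 (95% interval -0.33 to 0.53, limma adjusted p = 0.999). It was 0.18 without both livers.

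*Bmf* (chromosome 2, 118528757 to 118549687, minus strand) varied most among the BH3-only genes. WT replicates 1 to 3 held 47, 153 and 36 normalised counts and FL replicates 1 to 4 held 48, 93, 136 and 70. WT replicate 2 was highest, FL replicate 3 came next, and the other WT livers were below every FL liver. With all livers the log2 fold change was 0.33 (95% interval -0.90 to 1.56, limma adjusted p = 0.999). Without WT replicate 2 the groups no longer overlapped, as for 19.8% of genes tested in that way, and without both livers the log2 fold change was 0.71 (0.074 to 1.34, unadjusted p = 0.0324, adjusted p = 0.463, limma). Without WT replicate 3 the sign turned, to -0.072.

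*Bik*, a BH3-only gene whose product sits at the endoplasmic reticulum, had the lowest p of the 10 members. It lies on chromosome 15 at 83526862 to 83544634, plus strand. WT replicates 1 to 3 held 60, 63 and 68 normalised counts, and FL replicates 1 to 4 held 62, 98, 89 and 108. All FL livers but replicate 1 were above the WT livers, and WT replicate 2 and FL replicate 3 were near the middle of their groups. FL livers averaged 89.2 ± 19.8 (SD, n = 4) and WT livers 63.7 ± 4.04 (SD, n = 3). The log2 fold change was 0.45 (95% interval -0.041 to 0.95), with an unadjusted p of 0.0671 and an adjusted p of 0.999 (limma), and p was 0.114 in an exact permutation test, two-sided, over all 35 ways to split the livers. Without FL replicate 1 the groups no longer overlapped, as for 7.47% of genes tested in that way. The log2 fold change was then 0.62 (unadjusted p = 0.0097, limma), and *Bik* did not pass the threshold after adjustment. In that fit 325 of 12594 genes had an unadjusted p under 0.05. With quantile normalisation the unadjusted p of *Bik* was 0.0403 (adjusted p = 0.999, limma), and 410 of 12545 genes were under 0.05. Over the 10 members the permutation p ran from 0.114 to 0.857, and the smallest value this design allows is 0.0286.

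The genes whose log2 values followed *Bik* most closely over the 7 livers were *Serpina1a* (Pearson's r 0.977, Spearman's rho 0.893), *Tdo2* (r 0.969, rho 0.821), *Mrm1* (r 0.958, rho 0.893), *Rab27a* (r 0.957, rho 0.901) and *Zfp954* (r 0.957, rho 0.857). They are the highest of all tested genes by design, and are a description of these 7 points with no test. *Serpina1a*, a protease inhibitor of plasma, belongs to a cluster of near-identical genes whose reads the counting could have split. *Tdo2*, the enzyme of liver that opens the tryptophan ring, ranged from 21241 to 22244 normalised counts in WT livers and from 23158 to 34366 in FL livers. Every FL liver was above every WT liver, as for 2.77% of all tested genes (log2 fold change 0.39, unadjusted p = 0.0345, limma). Of the 12545 tested genes, 0 passed the adjusted threshold with higher values in FL livers. *Tdo2* was picked for following *Bik*, so its separation is no separate result.

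**Figure D3:**
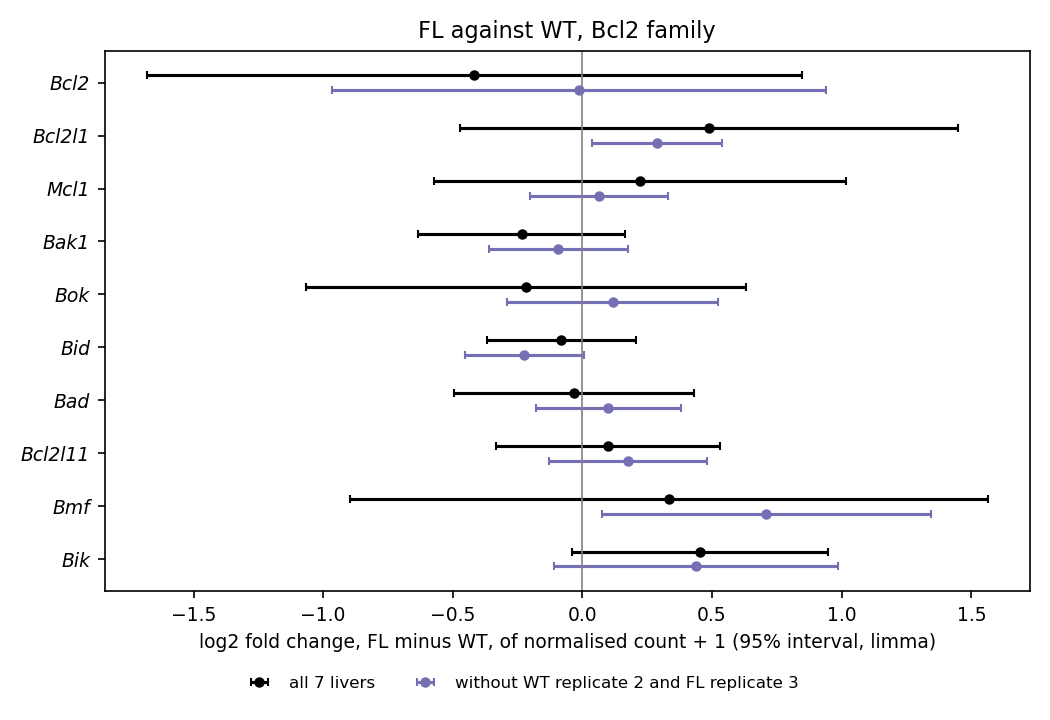
Log2 fold change of each member, FL minus WT, on log2(normalised count + 1) with its 95% limma interval, in black for all 7 livers and in violet without WT replicate 2 and FL replicate 3. Every black interval crosses 0, and of the violet ones those of Bcl2l1 (0.037 to 0.54) and Bmf (0.074 to 1.34) do not.

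Without the 2 livers, an unadjusted p under 0.05 was reached by 2 of 10 members, *Bcl2l1* and *Bmf*, where 9.74% of the 12325 genes tested did so, and an adjusted p under 0.05 by 0 of 10, where 0.0487% did. Ranges did not overlap for 3 of 10, *Bcl2l1*, *Bid* and *Bmf*, against 27.4% of the genes tested. The median log2 fold change of the members was then 0.11, against -0.013 over all genes. Both shares of members rest on 2 or 3 genes and are not a test of the family.

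The 2 livers that stood apart differed from the rest of their groups in the same direction for 8 of the 10 members. *Bcl2*, *Bak1*, *Bok*, *Bad* and *Bmf* were highest in both, *Bcl2l1*, *Mcl1* and *Bcl2l11* were lowest in both, and *Bid* and *Bik* were neither. Over all tested genes, 28.6% were highest in both livers, 28.8% lowest in both and 57.4% one or the other. The members are therefore a small part of a wide difference between livers.

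Sizes differed between the members. In WT replicate 2, *Bcl2l1* was at 0.375 and *Mcl1* at 0.458 of the mean of the other WT livers, and 7.68% of all tested genes were under 0.5 of it. *Bmf* was at 3.69, *Bcl2* at 3.64 and *Bok* at 2.64 times that mean, and 11.6% of all genes were over 2 times. In FL replicate 3 the same genes deviated less, with *Bcl2l1* at 0.475, *Mcl1* at 0.544, *Bmf* at 1.93, *Bcl2* at 1.68 and *Bok* at 1.44 times the mean of the other FL livers. These livers are defined by their values, not by a label, so no test was made between them and the others.

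**Figure D4:**
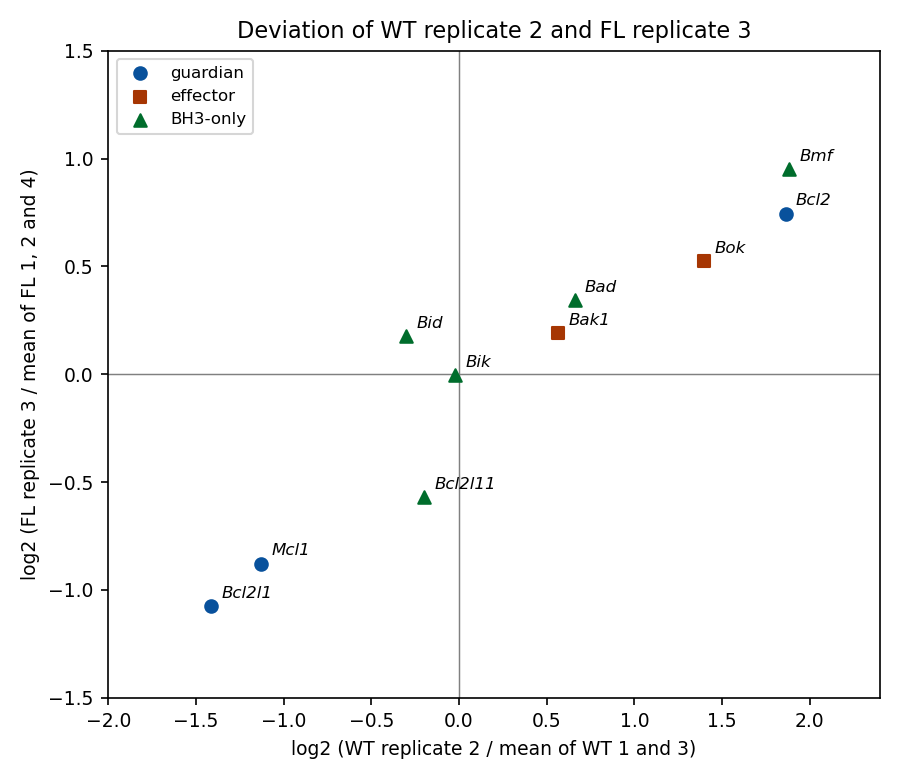
Each member's level in WT replicate 2 relative to the mean of the other WT livers (horizontal axis, log2) and in FL replicate 3 relative to the mean of the other FL livers (vertical axis, log2), with circles for guardians, squares for effectors and triangles for BH3-only genes. Mcl1 and Bcl2l1 lie at the lower left, at -0.88 and -1.07 on the vertical axis, and Bmf, Bcl2 and Bok at the upper right.

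The makeup of the family differed in these livers. Of the summed level per kilobase of the 10 genes, the guardians took 79.4%, 53.1% and 76.9% in WT replicates 1 to 3 and 80.6%, 80.8%, 63.4% and 75.9% in FL replicates 1 to 4. *Mcl1* alone took 61.4%, 43.4% and 62.2% in the WT livers and 62.9%, 62.6%, 49.98% and 56.0% in the FL livers. The effectors took 23.5% in WT replicate 2 against 8.04% and 8.96% in the other WT livers, and 14.5% in FL replicate 3 against 6.83% to 9.17% in the other FL livers. The BH3-only genes held 23.3% and 22.1% in these 2 livers and 12.0% to 15.0% in the rest. The ratio of guardian to all other transcripts per kilobase was thus 1.13 in WT replicate 2 and 1.73 in FL replicate 3, and 3.14 to 4.21 elsewhere. These shares are sums of transcripts and not of proteins.

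**Figure D5:**
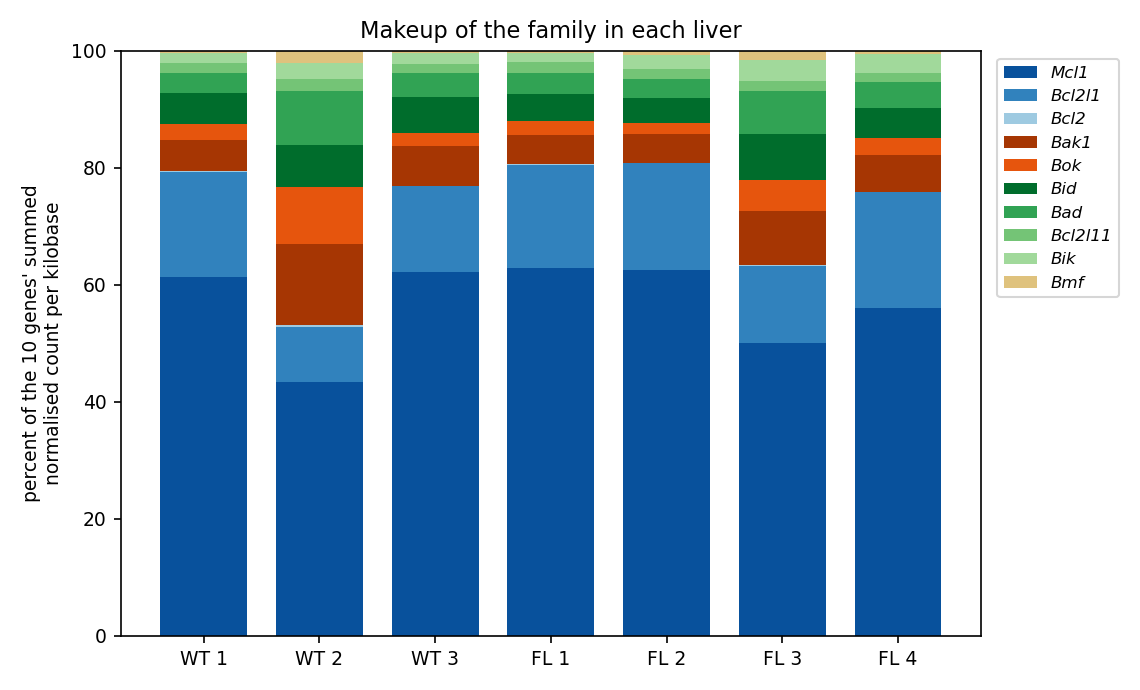
Share of each member in the summed normalised count per kilobase of the 10 genes, 1 bar per liver, with guardians in blue, effectors in brown and orange, and BH3-only genes in green and tan. Guardians take 53.1% in WT replicate 2 and 63.4% in FL replicate 3, and 75.9% to 80.8% in the other livers.

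Markers of several cell types were higher in these livers. The summed level of 9 cycling cell markers was 1236 normalised counts in WT replicate 2 against 121 and 154 in the other WT livers, and 330 in FL replicate 3 against 96 to 129 in the other FL livers; *Bub1* was at 0 in 1 or more livers. The 6 Kupffer cell and macrophage markers summed to 8231 in WT replicate 2, 2.25 times the other WT livers, and to 5388 in FL replicate 3, 1.34 times the other FL livers. The 5 stellate cell markers were at 2.10 and 1.13 times, although in FL replicate 3 only 3 of 5 were the highest of their group and *Reln* was at 0.916 times. The 4 B cell markers (*Ms4a1* at 0 in 1 or more livers) were at 5.31 and 2.68 times. The 5 T and NK cell markers (*Cd8a* at 0 in 1 or more livers) were at 4.17 and 2.95 times. The 5 endothelial markers were at 1.26 and 1.06 times, although *Clec4g* was the lowest of its group in both livers (0.825 and 0.830 times). The 4 of 6 neutrophil markers analysed here were at 1.33 and 1.57 times, with *Cxcr2* at 0 in 1 or more livers. Their sums were low (40 to 67 normalised counts in WT and 19 to 60 in FL livers), and only *S100a9* was highest in both livers. *S100a8* was at 0.788 times in WT replicate 2, and *Retnlg* at 0.667 times in FL replicate 3. The 5 hepatocyte markers, which define the labelled tissue, summed to 1206317 to 1484182 in WT and 1408917 to 1912633 in FL livers and were at 1.19 and 1.20 times. *Apoa1* was at 0.962 times in WT replicate 2. By genotype, all 5 log2 fold changes, FL minus WT, were above 0 (0.10 to 0.65), also without both livers. Of the 5, 2 had an unadjusted p under 0.05 (limma), where 3.20% of all tested genes did, and 0 an adjusted one. Groups did not overlap for 2 of 5, against 4.76% of all tested genes. The 4 cholangiocyte markers were at 1.03 times in WT replicate 2 and at 0.438 times in FL replicate 3. Of these 4, 3 also differed by genotype before adjustment, and not in 1 direction. *Krt19* (26 to 128 normalised counts in WT and 6 to 21 in FL livers) and *Krt7* (28 to 33 and 2 to 18) were lower in every FL liver, and *Sox9* (204 to 261 and 297 to 763) was higher. Each had an unadjusted p under 0.05, where 3.20% of all tested genes did, and an adjusted p of 0.999 by limma. Groups that did not overlap were found for 3 of 4, against 4.76% of all tested genes. *Epcam*, the other marker, had groups that overlapped (unadjusted p = 0.139, limma). Without both livers all 4 had an unadjusted p under 0.05, against 9.74% of the genes tested. *Sox9* alone of them passed the threshold (log2 fold change 1.45, limma adjusted p = 0.0270), as 0.0487% of the genes tested did. The part of these cells in the Bcl2 family values was not tested.

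Among the directly p53-induced relatives, given for comparison, 0 of 3 passed an adjusted p of 0.05, where 0.0159% of all tested genes did. An unadjusted p of 0.05 was passed by 1 of 3, *Bax*, against 3.20% of all tested genes. *Bax*, the effector that works beside BAK, was at 611, 889 and 634 normalised counts in WT replicates 1 to 3 and at 443, 479, 507 and 543 in FL replicates 1 to 4. No FL value reached the lowest WT value, as for 1.98% of all tested genes. The log2 fold change was -0.51 (SE 0.16, unadjusted p = 0.0112, adjusted p = 0.999, limma), or -0.35 without both livers. *Bbc3*, the BH3-only gene for PUMA, was at 68, 257 and 105 in the WT livers and at 122, 126, 166 and 151 in the FL livers, with a log2 fold change of 0.19 (adjusted p = 0.999, limma). As for *Bmf*, WT replicate 2 was the highest liver, and without both livers the log2 fold change was 0.64 (unadjusted p = 0.0117, adjusted p = 0.364, limma). An unadjusted p under 0.05 was then reached by 9.74% of the genes tested.

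The rest of the family numbered 14 listed genes, of which 10 were in the table and 8 were tested. Of these 8, none passed an adjusted or an unadjusted p of 0.05, their log2 fold changes ran from -0.18 to 0.20, and 1 of 8, *Bnip2*, had groups that did not overlap, where 4.76% of all tested genes did. Without both livers 1 of 8, *Bcl2l2*, had an unadjusted p under 0.05, against 9.74% of the genes tested, and 0 of 8 an adjusted one. The genes with the most normalised counts, not divided by length, were *Bcl2l13*, a mitophagy receptor, with 1047, 923 and 1147 normalised counts in WT and 1230, 1102, 915 and 1011 in FL livers, and *Bnip3*, a hypoxia-induced relative, with 808, 461 and 991 in WT and 762, 838, 799 and 893 in FL livers. Per kilobase of exon *Bnip3* was at 350 normalised counts and *Bcl2l13* at 116. *Bcl2a1a*, *Bcl2a1d*, *Bcl2l10* and *Bcl2l15* were not analysed here.

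Of 12 genes that act after the mitochondrial membrane has opened (cytochrome c, the apoptosome, caspases and their inhibitors), 0 of 12 passed an adjusted p and 0 of 12 an unadjusted p of 0.05, and the same counts were found without both livers. The genes with the most normalised counts, not divided by length, were *Aifm1*, a flavoprotein of the intermembrane space, with 1255, 1589 and 1395 normalised counts in WT and 1269, 1299, 1511 and 1403 in FL livers, and the caspase inhibitor *Xiap*, with 913, 663 and 754 in WT and 957, 843, 694 and 784 in FL livers. The FL values of both genes lay within or close to the WT range. Per kilobase of exon *Aifm1* was at 347 and *Xiap* at 84.6 normalised counts, and *Endog*, a mitochondrial nuclease, was first of the list at 353.9.

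Of 23 partners and regulators of the members, 0 of 23 passed an adjusted p of 0.05 and 2 of 23 an unadjusted one, where 3.20% of all tested genes did, with lower values in FL livers in both. *Foxo3*, a transcription factor known to induce *Bcl2l11*, was at 492, 677 and 670 normalised counts in WT replicates 1 to 3 and at 361, 443, 456 and 359 in FL replicates 1 to 4. The groups did not overlap, and the log2 fold change was -0.59 (SE 0.16, unadjusted p = 0.00618, adjusted p = 0.999, limma), or -0.57 without both livers. Groups that did not overlap were found for 2 of 23, against 4.76% of all tested genes. The other was *Foxo1*, a related factor, with the opposite direction: WT livers held 462, 443 and 484 normalised counts and FL livers 517, 553, 549 and 510 (log2 fold change 0.20, unadjusted p = 0.0703, adjusted p = 0.999, limma). *Dynll1*, the dynein light chain that binds BIM, was at 503, 427 and 608 in the WT livers and at 397, 384, 365 and 449 in the FL livers (log2 fold change -0.35, SE 0.15, unadjusted p = 0.0428, adjusted p = 0.999, limma). Without both livers 3 of 23 had an unadjusted p under 0.05, *Foxo3*, *Dynll1* and *Ddit3*, against 9.74% of the genes tested, and 0 of 23 an adjusted one. Those with the most normalised counts, not divided by length, were *Tmbim6*, an inhibitor of cell death at the endoplasmic reticulum, with 20260 to 23957 normalised counts in WT and 21585 to 23914 in FL livers, and *Huwe1*, a ubiquitin ligase of MCL1, with 4423 to 6061 in WT and 4776 to 5801 in FL livers. *Tmbim6* and *Huwe1* had log2 fold changes of 0.062 and -0.087. Per kilobase of exon *Tmbim6* was first of the list at 4900 normalised counts, and *Huwe1* was at 226.

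Reads could be assigned to the members with little ambiguity. Stretches of 36 bases shared with transcripts of other genes made up 0.37% of the transcript sequence of *Bcl2*, 0.35% of that of *Mcl1* and 0.30% of that of *Bcl2l11*, and none of that of the other members. Exons of *Bcl2*, *Bak1*, *Bid* and *Bad* overlap an antisense gene (*D630008O14Rik*, *Ggnbp1*, *Bcl2l13* and *Gpr137*), and whether the counting used the strand is not given in the sources used here.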

How the data were processed

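RNA of 4 FL and 3 WT livers was analysed, assigned to genotype and replicate by their labels. Per the submitters' processing notes, the authors used bcl2fastq (2.15.0.4), TopHat2 (2.0.13), Bowtie2 (2.2.6.0), HTSeq (2.2.4.0), featureCounts, R (3.4.2) and DESeq2. Libraries were stranded and made from polyadenylated RNA. The values deposited by the authors are counts divided by size factors and rounded to whole numbers, and were treated as a score and not as counts, so no count test was run. The table held 14988 rows for 14851 Ensembl identifiers, and the repeated rows of 120 identifiers, which were identical, were dropped. The build named in the notes is a human one although the identifiers are mouse, so no coordinate was taken from the files. Symbols, coordinates and exon lengths came from GENCODE vM21 (GRCm38) for 14839 identifiers.

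FL and WT livers were compared by limma (version 3.58.1, R version 4.3.3) on log2(normalised count + 1), allowing the variance to follow the mean. This scale understates changes of low genes. Genes were tested if they averaged 10 or more (12545 genes), and Benjamini-Hochberg adjustment covered all of them, with a threshold of 0.05. Permutation tests were exact and two-sided, over all 35 ways to split the livers. The limma step and the fit of the value of 1 read (0.812 to 1.38 normalised counts) were tested on simulated data. Tables and figures were made with Python 3.11.15, pandas 2.3.3, NumPy 2.4.6 and Matplotlib 3.10.9. Depths and floors cover counting error only, and the 10 highest genes held 15.4% to 19.7% of the normalised counts.

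The members, the gene lists and the alternatives were chosen with earlier results of these data known. Other listed genes were named where the unadjusted p was under 0.05 or the mean was among the 2 highest of the list, and for the member with the lowest p the 5 genes with the highest Pearson correlation. *Bnip2*, *Bcl2l2*, *Foxo1*, *Ddit3*, *Endog* and the genes of the closing observations were named after their values were seen. Alternatives were pseudocounts of 0.5 and 5, other filters on low values, quantile and upper-quartile scaling, limma without a trend, with robust hyperparameters or with array weights, the replicate number as a block, leaving out each liver, leaving out WT replicate 2 and FL replicate 3, and the longest transcript as length. All mice are separate animals by their labels.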

Additional observations from a re-analysis of the deposited data

Results flagged for a closer look

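Among the 4 FL livers, 34 quantities were examined for a liver that lay far from the others, by Dixon's criterion at the 95% level, and 4 met it. Independent quantities would give about 1.7 by chance, but these share genes and livers, so the count of 4 cannot be weighed against it. All 4 that met the criterion concern FL replicate 3, which had already been seen to stand apart. Its *Bcl2l1* level was 958 normalised counts, against 1962 to 2077 in the other FL livers. The summed stellate cell markers were 2885 there, against 2518 to 2580 in the others, with 3 of 5 the highest there and *Reln* at 0.916 times the others' mean. The summed cycling cell markers were 330, against 96 to 129, and the score on the first principal component was 29.2, against -25.6 to -20.7. The WT group of 3 livers was too small for this rule. What these values share was not tested.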

How the results depend on the processing

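In 19 alternatives, 188 fold changes of the members were recomputed, of which 175 kept their direction and 13 changed it, and 0 were past the threshold (limma adjusted p between 0.300 and 1.0). The count of members past the threshold was 0 in every alternative, with at most 2 of them under an unadjusted p of 0.05. There were 2 without WT replicate 2 and FL replicate 3, where 9.74% of the genes tested were under it. With array weights there were also 2, *Bid* and *Bmf*, where 1512 of 12545 genes were under it. The count of all genes past the threshold, 2 with all livers (401 at an unadjusted p under 0.05), was 0 with a pseudocount of 5 (404 unadjusted), with at least 10 in every liver (356), with a mean of at least 50 (316) and without a trend (465). It was 1 with quantile normalisation, 5 with array weights and 6 without WT replicate 2 and FL replicate 3. With array weights the log2 fold changes of *Bcl2*, *Bok* and *Bad* turned to 0.077, 0.14 and 0.068, and without both livers those of *Bok* and *Bad* turned to 0.12 and 0.099, and that of *Bid*, which kept its direction, was -0.22. Members whose groups did not overlap numbered 3 of 10 without both livers, where 27.4% of the genes tested did not overlap. With the longest transcript as length, 3 members changed place in the order of levels. No scaling moved the median of all genes by 0.1 or more on the log2 scale.

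Leaving out 1 liver at a time gave 0 to 5 genes past the threshold, 0 members past it, and 0 to 1 member whose groups did not overlap. The fits with 1 such member left out FL replicate 1, FL replicate 3, WT replicate 1 or WT replicate 2. There 7.47%, 11.4%, 9.07% and 19.8% of the genes tested did not overlap. The log2 fold changes then ranged from -0.77 to 0.18 for *Bcl2*, from 0.019 to 0.81 for *Bcl2l1*, from -0.15 to 0.44 for *Mcl1*, from -0.39 to -0.045 for *Bak1*, from -0.54 to 0.25 for *Bok*, from -0.18 to 0.0054 for *Bid*, from -0.18 to 0.19 for *Bad*, from -0.0012 to 0.24 for *Bcl2l11*, from -0.072 to 0.96 for *Bmf* and from 0.35 to 0.62 for *Bik*. The highest values of *Bcl2*, *Bak1*, *Bok*, *Bad* and *Bmf* and the lowest of *Bcl2l1*, *Mcl1* and *Bid* were those without WT replicate 2.

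The labels do not say whether the replicate numbers pair the livers. Deviations of same-numbered livers from their group means, over all tested genes, correlated at 0.44, -0.48 and -0.66 for replicates 1 to 3. The 2 livers that stood apart carry different numbers and weigh on these values, so the correlations cannot show whether livers were paired. Under a replicate block, 0 genes were past the threshold (110 at an unadjusted p under 0.05) and no member was. With 4 and 3 livers and 2 of them apart, the intervals were wide, reaching down to 0.312 times the WT level for *Bcl2* and 0.478 times for *Bok*, and up to 2.96 times for *Bmf*, 2.73 times for *Bcl2l1*, 2.02 times for *Mcl1* and 1.93 times for *Bik*, and transcript levels near 3 reads were not resolved.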

Other observations

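Further genes of the listed pathways separated WT replicate 2, or both it and FL replicate 3, from the other livers. They are named here after their values were seen. Over all tested genes, 57.4% were highest of their group in both of these livers or lowest in both. In WT replicate 2, 19.3% were over 2 times or under 0.5 times the mean of the other WT livers. *Bcl2a1b*, a guardian of leukocytes that was too low to be tested, was listed at 25 normalised counts in WT replicate 2 and at 0 to 4 in all other livers. *Casp8*, the initiator caspase that cuts BID, was at 448 in WT replicate 2 and 480 in FL replicate 3, against 716 to 912 in the other livers. *Ddit3*, the stress-induced transcription factor CHOP, was at 1385 in WT replicate 2, against 2253 to 3779 in the others, while FL replicate 3 held 2269. *Bcl2l14* was at 73 and 82 normalised counts in WT replicate 2 and FL replicate 3, and at 102 to 184 elsewhere.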
